A study of Mus musculus with 4 samples.

Results

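The enzymes that place and remove acetyl and methyl groups on histones were followed in the brain of newborn mice whose mothers had received titanium dioxide nanoparticles. The group holds the autosomal genes whose symbols begin as those of histone deacetylases (Hdac, Sirt), lysine acetyltransferases (Kat), histone methyltransferases (Kmt2, Setd, Ehmt, Suv39h2, Ezh) and demethylases (Kdm). Of 67 symbols in the mouse gene table that match these names, 55 were autosomal and had a probe with a RefSeq accession. These 55 genes are the members, out of 20660 RefSeq genes on the array. Another 6 genes lie on the X or Y chromosome (Hdac6, Hdac8, Suv39h1, Kdm5c, Kdm5d and Kdm6a) and were kept apart. No matched RefSeq probe was found for Kmt2a, Setd1b, Kdm4dl, Kat2b-ps, Kat6b-ps1 and Kat6b-ps2, and they were not analysed here. The members had 79 RefSeq probes, and 36 of them had 1 probe only. Where a gene had several, the brightest over the 4 arrays stood for it, and the others served as a check.

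Pregnant C57BL/6J mice were given 25 µL of vehicle (Sham) or of a suspension of titanium dioxide nanoparticles (TiO2-H, 100 µg per mouse) by spray into the trachea. The protocol places this on gestational day 10.5, whereas the sample descriptions write gestational day 14. Whole brains were taken on postnatal day 1, and total RNA of 2 offspring from each of 5 Sham dams or 6 TiO2-H dams was pooled for each sex. Both exposures and both sexes thus gave 4 groups, each a single pool on a single one-color array, and no group has a replicate.

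All 4 arrays lay on 1 slide, with the Sham arrays in its first row and the TiO2-H arrays in its second, so that slide row and exposure cannot be told apart. The sex labels of the TiO2-H arrays went against the sex-linked transcripts. Xist, the RNA of the inactive X chromosome, gave processed signals of 17.9 for Sham male, 276 for Sham female, 347 on the TiO2-H array labelled male and 5.36 on the TiO2-H array labelled female. The Y-linked Ddx3y gave 1418, 142, 7.18 and 1783 in the same order. The Sham female array was thus above background for a Y-linked transcript, at a lower signal than the Sham male array. The TiO2-H arrays are therefore named below by their labels only. Between 56.2% and 61.2% of spots were well above background, and no spot was saturated. Defining markers of brain cells were well above background on every array, with all 5 neuronal and all 5 radial glial markers. In such whole-tissue RNA, fewer cells of a type and less RNA per cell cannot be told apart.

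Acetyl groups on histone tails loosen chromatin and mark active genes. They are added by the Kat enzymes and removed by the zinc-dependent Hdac and the NAD-dependent Sirt enzymes. Methyl groups have meanings that depend on the residue. H3K4 methylation marks active promoters and enhancers, and H3K9 and H3K27 methylation mark silent chromatin. Kdm1 enzymes remove methyl groups by an oxidase reaction, and the other Kdm enzymes by an iron-dependent JmjC domain. In the developing brain these enzymes act in the passage from dividing progenitors to neurons and glia.

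Promoters differ in their content of CG dinucleotides, the site of DNA methylation. The letters CG, which read the same on both strands, were counted in the RefSeq promoter windows of 300 bases, from 250 bases before to 50 bases after the first listed start. A window was matched for 44 of the 55 members. Their median was 23 CG, and 59.1% of them held 20 or more. Over all 16374 RefSeq genes of the array with a window, the median was 15, and 38.3% held 20 or more. The counts ranged from 0 in Hdac9 and Kdm4c to 65 in Kdm7a. Several starts are listed for 13 of the 44, among them Hdac9 with 2 and Kdm3a with 3. Only the first was read, so that a count holds for that start alone. The 250 bases before the first listed start are shown for 4 members whose array values are given below: Kdm1b, with the largest mean difference among members seen on all 4 arrays, Hdac9, the deacetylase with the largest difference, Kdm3a, a demethylase with lower values, and Kdm7a, with the only call. The sequences are from RefSeq on assembly GRCm38.p6, and capitals mark CG.
Kdm1b (chr13:47043249-47043498, plus strand): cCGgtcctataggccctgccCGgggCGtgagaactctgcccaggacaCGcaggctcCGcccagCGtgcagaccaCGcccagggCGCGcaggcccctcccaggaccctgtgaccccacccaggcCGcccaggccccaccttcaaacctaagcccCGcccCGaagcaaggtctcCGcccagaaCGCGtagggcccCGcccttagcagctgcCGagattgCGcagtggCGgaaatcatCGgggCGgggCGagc
Hdac9 (chr12:34917096-34917345, minus strand): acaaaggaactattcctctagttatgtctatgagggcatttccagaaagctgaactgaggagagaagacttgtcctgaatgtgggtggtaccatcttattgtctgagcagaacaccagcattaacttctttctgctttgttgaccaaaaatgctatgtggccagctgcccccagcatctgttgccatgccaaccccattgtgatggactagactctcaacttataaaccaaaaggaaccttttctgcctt
Kdm3a (chr6:71632918-71633167, minus strand): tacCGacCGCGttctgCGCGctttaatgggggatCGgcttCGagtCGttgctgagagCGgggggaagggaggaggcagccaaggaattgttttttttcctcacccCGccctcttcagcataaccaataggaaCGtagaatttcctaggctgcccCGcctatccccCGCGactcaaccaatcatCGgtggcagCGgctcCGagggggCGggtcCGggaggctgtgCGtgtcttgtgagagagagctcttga
Kdm7a (chr6:39206774-39207023, minus strand): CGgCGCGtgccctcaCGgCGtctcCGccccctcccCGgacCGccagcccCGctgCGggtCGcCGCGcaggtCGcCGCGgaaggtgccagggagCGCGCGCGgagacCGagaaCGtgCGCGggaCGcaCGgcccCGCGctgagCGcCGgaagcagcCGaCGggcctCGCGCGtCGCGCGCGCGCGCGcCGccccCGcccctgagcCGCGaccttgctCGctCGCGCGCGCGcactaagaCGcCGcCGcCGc

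The 4 stretches hold 22, 0, 20 and 56 CG, in this order. The CG count is a property of the sequence, and no methylation was measured on these arrays.

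Values are given as log2 processed signal relative to the 75th percentile of the array, so that 0 is the level of a spot brighter than 75% of all spots of that array. Of the 55 members, 54 were well above background on all 4 arrays, and 43 lay above the 75th percentile on each of them. Kdm7a was the exception. Of all 20660 RefSeq genes, 14633 were well above background on all 4 arrays. How many of them lay above the 75th percentile was not counted. No level is set against that of another gene, since probes differ in brightness. With 1 array per group no test was possible within a sex label. A gene was therefore called by size, at 1.5-fold or more or at 0.67-fold or less (thresholds that the methods give). The comparison ran between the arrays that share a sex label.

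By this rule, no member was higher at 1.5-fold in TiO2-H on the arrays labelled male, where 2.06% of all RefSeq genes compared were. None was lower at 0.67-fold there, against 1.83% of all genes. On the arrays labelled female, again no member was higher, against 1.59% of all genes. There 1 member, Kdm7a, was lower, against 1.97% of all genes. Shares of this size over 55 genes correspond to about a single gene in each direction, so the near absence of calls did not set the members apart from other genes. These shares include genes that were dim on 1 of the arrays compared. Of the 14633 genes seen on all 4 arrays, 121 were higher and 88 lower on the arrays labelled male. On those labelled female, 110 were higher and 118 lower. None of the 54 members seen on all 4 arrays was called. The median log2 fold change of the members was -0.01 on the arrays labelled male and 0.02 on those labelled female. Over all genes the medians were 0.00 and 0.01. Among the 54 members seen on all 4 arrays, the largest difference in either label was that of Kdm2a, which was lower by 0.39 on the log2 scale on the arrays labelled female. Both fold changes stayed within 1.2-fold for 48 of these 54 (88.9%), and for 83.3% of all genes seen on all 4 arrays.

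**Figure D1:**
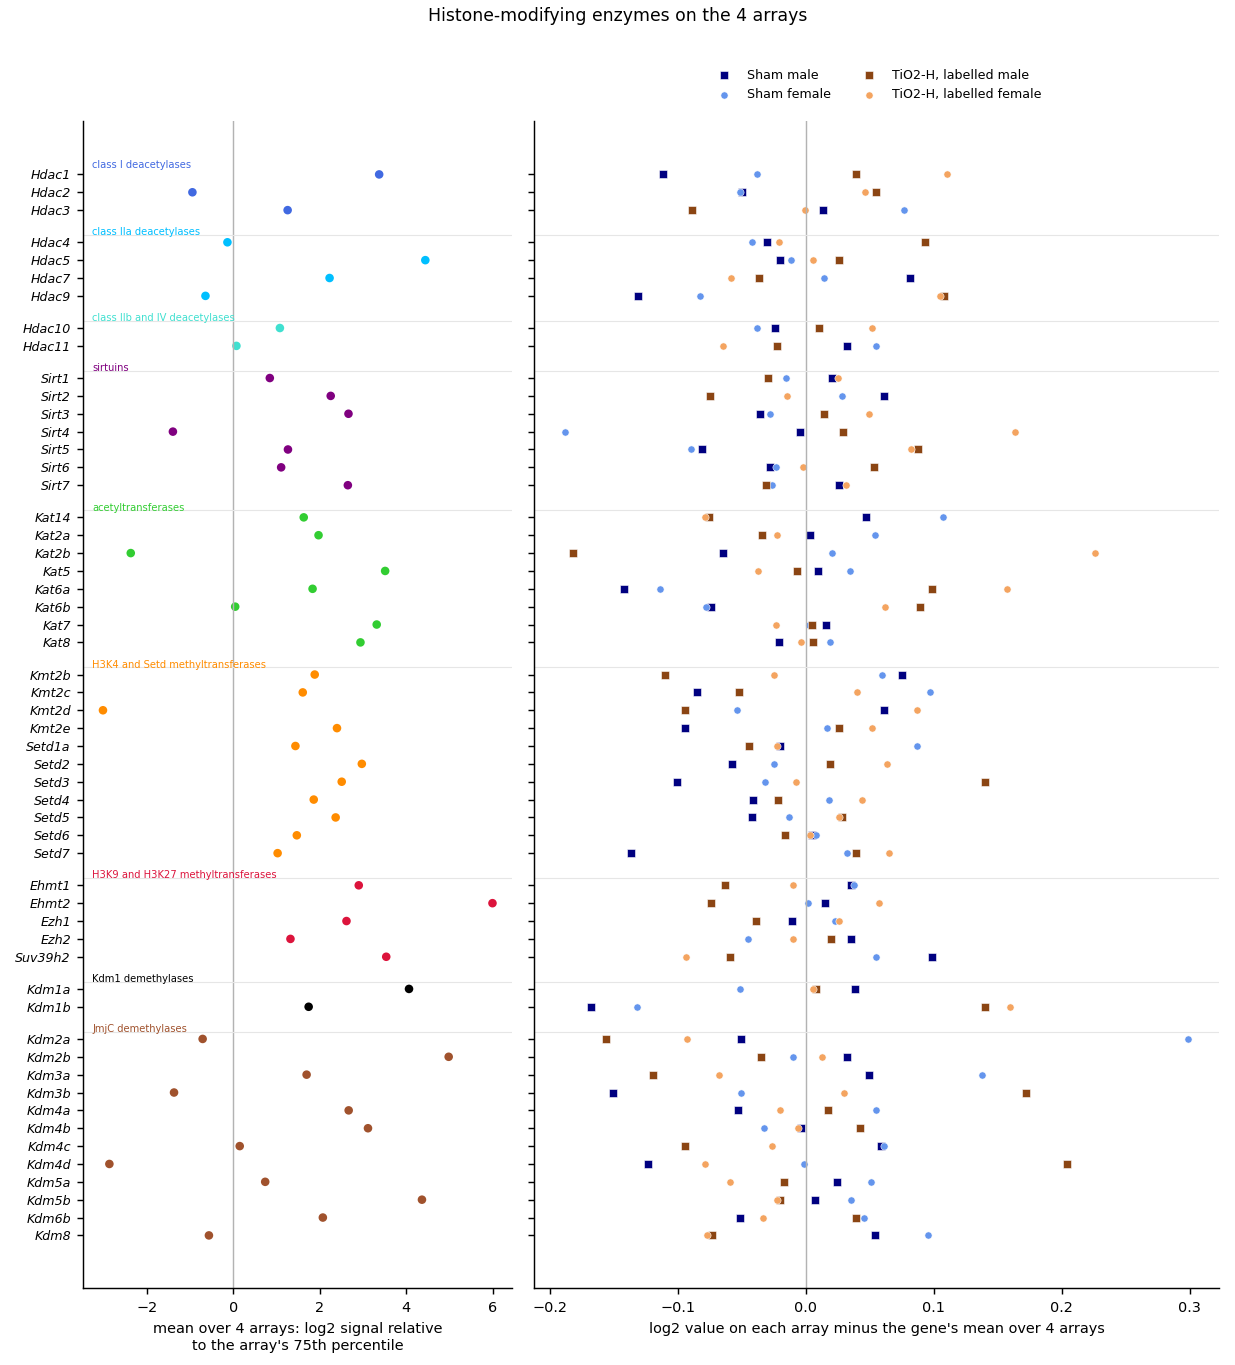
The 54 members well above background on all 4 arrays, by family. The left panel gives the mean log2 signal relative to the 75th percentile of each array, and the right panel the log2 value of each array minus the gene's mean over the 4 arrays (squares, labelled male; circles, labelled female; blue, Sham; brown, TiO2-H). Both brown points lie to the right of both blue points in 19 members and to the left in 18.

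The 2 arrays of each exposure were then set against each other irrespective of sex. Of the 55 members, 19 had higher values on both TiO2-H arrays than on both Sham arrays, against 28.5% of all genes (34.5% of the members). Lower values on both were found for 18 members (32.7%), against 27.1% of all genes. With 2 arrays against 2, the exact permutation test cannot go below p = 0.33 (two-sided) for any single gene. The limma fit over 26204 features, with Benjamini-Hochberg adjustment, called none at an adjusted p under 0.05 (0.0% of features and 0 members). The lowest adjusted p was 0.327. At an unadjusted limma p under 0.05 it held 5 members that were higher in TiO2-H (8.7% of all genes) and 4 that were lower (5.45%). The 5 were Kdm1b, Kat6a, Hdac9, Sirt5 and Kat6b, and the 4 were Kdm3a, Kat14, Suv39h2 and Kdm8. The members amount to 9.09% and 7.27%, close to the shares of all genes. With any 1 of the 4 arrays left out, fewer members passed that p, in fits that keep a lone array in an exposure. The shares of all genes in those fits were not counted. The scaling bears on both splits. Without scaling between arrays, which put the median of all genes at 0.10 and 0.14 in the 2 labels, 39 members were higher and 3 lower on both TiO2-H arrays, against 61.4% and 6.33% of all genes.

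**Figure D2:**
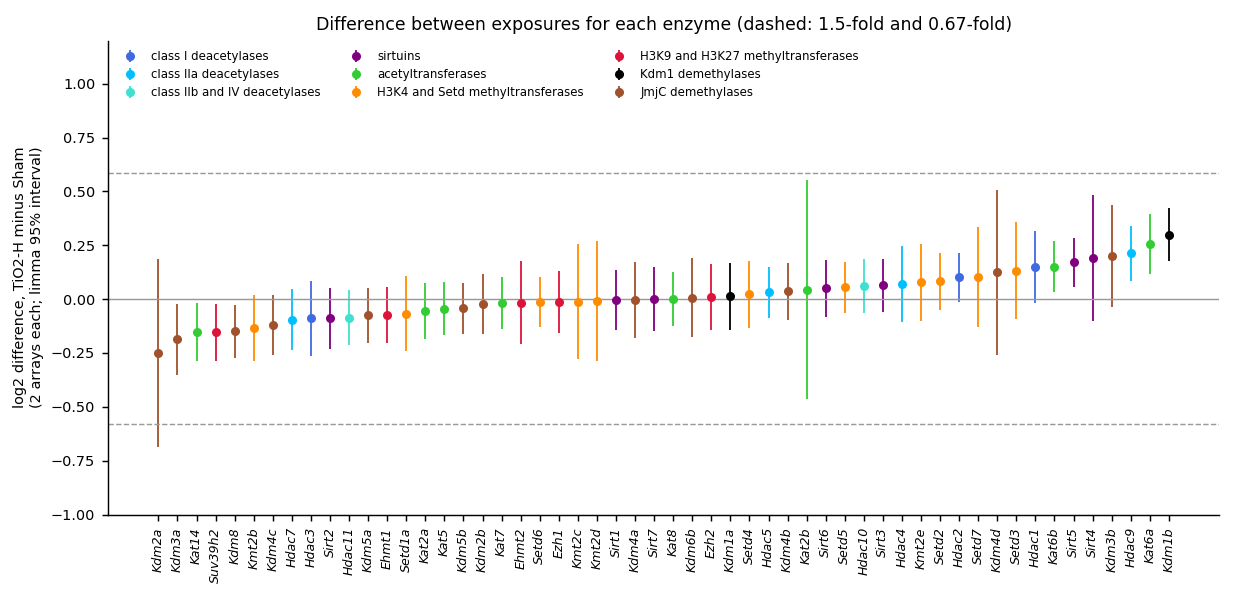
Difference between the 2 TiO2-H and the 2 Sham arrays in log2 units for the 54 members, in ascending order, with the 95% interval of the limma fit (not adjusted for the number of genes) and colored by family. All intervals but that of Kdm2a lie between the dashed lines at 0.67-fold and 1.5-fold.

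The limma intervals show what these arrays could resolve. The standard error of a member's difference was between 0.04 and 0.17 on the log2 scale (median 0.05). For 53 of the 54 members the 95% interval lay between 0.67-fold and 1.5-fold, and Kdm2a was the exception. These intervals cover the spread between 2 pools of an exposure only, which differ in sex as well. The members varied less within an exposure than between exposures. The robust SD of their log2 ratios was 0.06 between the Sham arrays and 0.07 between the TiO2-H arrays, but 0.13 and 0.12 between exposures in the 2 labels. All genes showed this as well, with 0.09 and 0.08 within and 0.13 and 0.14 between exposures. The root mean square SD of repeated spots of a probe on 1 array was 0.10 to 0.11, and the median SD 0.06 to 0.07. Both are SDs of single spot values rather than robust SDs of log2 ratios, so they are not on the same footing.

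Among the class I deacetylases, the catalytic subunits of the NuRD, Sin3 and CoREST complexes, Hdac1 and Hdac2 were slightly higher in TiO2-H. Hdac1 had values of 3.26 and 3.34 on the Sham male and female arrays and 3.41 and 3.48 on the TiO2-H arrays labelled male and female. The TiO2-H values lay above both Sham values, by 10.9% in the mean (log2 difference 0.15 ± 0.05, limma SE, adjusted p = 0.354). Hdac2 stood at -1.0 on both Sham arrays and at -0.89 and -0.90 on the TiO2-H arrays, a difference of 0.10 ± 0.04. Hdac3, the deacetylase of the NCoR and SMRT corepressors, was lower on both TiO2-H arrays, with 1.27 and 1.33 in Sham and 1.17 and 1.26 in TiO2-H. None of the 3 passed the test.

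The class IIa deacetylases shuttle between nucleus and cytoplasm with neuronal activity. Hdac9 gave -0.77 and -0.73 in Sham and -0.54 on both TiO2-H arrays. The 2 exposures did not overlap, and TiO2-H was 15.9% higher (log2 difference 0.21 ± 0.04, adjusted p = 0.327). Hdac4 gave -0.17 and -0.18 in Sham and -0.04 and -0.16 in TiO2-H. Hdac5 differed by 0.03, and Hdac7 was lower in TiO2-H by 0.10 on the log2 scale. Of the remaining deacetylases, Hdac10, a polyamine deacetylase, differed by 0.06, and Hdac11, the class IV enzyme, was lower by 0.09, with 0.10 and 0.13 in Sham and 0.05 and 0.01 in TiO2-H.

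The sirtuins couple deacylation to the NAD level of the cell. Of the 7 members, 4 were higher on both TiO2-H arrays (Sirt3, Sirt4, Sirt5 and Sirt6) and 1 was lower (Sirt2). Of all genes, 28.5% were higher and 27.1% lower on both, and no test was made of a family. The mitochondrial desuccinylase Sirt5 gave 1.18 on both Sham arrays and 1.35 on both TiO2-H arrays. Its difference of 0.17 ± 0.04 was the same in both labels (12.5% higher, adjusted p = 0.327). The mitochondrial Sirt4 gave -1.40 and -1.58 in Sham and -1.37 and -1.23 in TiO2-H. Most of its difference came from the arrays labelled female, with log2 fold changes of 0.03 and 0.35 in the 2 labels. Sirt1, the nuclear sirtuin, gave 0.87 and 0.83 in Sham and 0.82 and 0.87 in TiO2-H, so that the exposures overlapped. Sirt2, which deacetylates tubulin in myelinating glia, gave 2.31 and 2.28 in Sham and 2.18 and 2.24 in TiO2-H.

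Of the 8 acetyltransferases, Kat6a and Kat6b were higher on both TiO2-H arrays, and Kat14, Kat2a and Kat5 lower. Over all genes, the shares were 28.5% higher and 27.1% lower on both. Kat6a (MOZ), a MYST enzyme that acetylates histone H3, gave 1.69 and 1.72 in Sham and 1.93 and 1.99 in TiO2-H. It was 19.4% higher in TiO2-H (log2 difference 0.26 ± 0.05, adjusted p = 0.327). Its paralog Kat6b (MORF), a regulator of neural stem cells, gave -0.03 on both Sham arrays and 0.13 and 0.11 in TiO2-H, which is a difference of 0.15 ± 0.04.

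Kat14, a subunit of the ATAC complex, went the other way with 1.68 and 1.74 in Sham and 1.55 on both TiO2-H arrays. It was lower in TiO2-H by 0.15 on the log2 scale (SE 0.04, adjusted p = 0.328). Kat2a (GCN5), the catalytic subunit of SAGA and ATAC, gave 1.97 and 2.03 in Sham and 1.94 and 1.95 in TiO2-H. Kat5 (Tip60), Kat7 (HBO1) and Kat8 (MOF) differed by 0.04 or less, and the exposures of Kat7 and Kat8 overlapped. Kat2b (PCAF) had the largest standard error of the 54 members. It gave -2.44 and -2.35 in Sham but -2.55 and -2.15 in TiO2-H, with a 95% interval of the difference from -0.46 to 0.55.

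None of the 11 H3K4 and Setd methyltransferases had an unadjusted limma p under 0.05. On both TiO2-H arrays 5 were higher (Kmt2e, Setd2, Setd3, Setd5 and Setd7) and 3 lower (Kmt2b, Setd1a and Setd6). There 28.5% of all genes were higher and 27.1% lower, and this family was not tested as a set. Setd2, which trimethylates H3K36 behind the polymerase, gave 2.92 and 2.95 in Sham and 2.99 and 3.04 in TiO2-H. Kmt2b (MLL2) gave 1.96 and 1.94 in Sham and 1.77 and 1.86 in TiO2-H (difference -0.13 ± 0.05, adjusted p = 0.359). The enhancer methyltransferases Kmt2c and Kmt2d, the latter mutated in Kabuki syndrome, overlapped between exposures, and their differences were -0.01 each. Setd1a, whose loss of function predisposes to schizophrenia, differed by -0.07, and Setd7, which monomethylates H3K4, by 0.10. Setd3, which methylates actin, gave 2.41 and 2.48 in Sham and 2.65 and 2.50 in TiO2-H.

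Of the 5 autosomal methyltransferases of silent chromatin, Suv39h2 and Ehmt1 were lower on both TiO2-H arrays, and the other 3 overlapped between exposures. Among all genes, 27.1% were lower and 28.5% higher on both. Ezh2, the methyltransferase of the Polycomb complex PRC2, gave 1.36 and 1.28 in Sham and 1.34 and 1.31 in TiO2-H, and its 95% interval ran from -0.14 to 0.16. Its paralog Ezh1 differed by -0.01. Ehmt1 and Ehmt2 (GLP and G9a), which dimethylate H3K9, differed by -0.07 and -0.02. Suv39h2, which trimethylates H3K9 in heterochromatin, had lower values on both TiO2-H arrays, with 3.64 and 3.59 in Sham and 3.48 and 3.44 in TiO2-H. Its log2 difference was -0.15 ± 0.04 (adjusted p = 0.327). All 5 genes had log2 fold changes below 0 on the arrays labelled male, whereas 3 of 5 were above 0 on those labelled female.

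The amine oxidase Kdm1b (LSD2) demethylates H3K4 within gene bodies and acts in oocytes on imprinted genes. It had the largest mean difference among the 54 members seen on all 4 arrays. It gave 1.58 and 1.61 on the Sham arrays and 1.88 and 1.90 on the TiO2-H arrays. The exposures differed by 0.30 ± 0.04 (23.1% higher in TiO2-H, 95% interval 0.18 to 0.42), while the arrays of an exposure differed by 0.04 and 0.02. Its adjusted p was 0.327 all the same. Kdm1a (LSD1), the enzyme of the CoREST complex in neural progenitors, gave 4.10 and 4.01 in Sham and 4.07 on both TiO2-H arrays, and the exposures overlapped.

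Of the 13 JmjC demethylases, the largest family here, 6 were lower on both TiO2-H arrays (Kdm2a, Kdm3a, Kdm4c, Kdm5a, Kdm5b and Kdm8) and 1 higher (Kdm3b). These are 46.2% and 7.69%, against 27.1% and 28.5% of all genes, and no test was made of a family. Kdm3a, an H3K9 demethylase induced by hypoxia, gave 1.75 and 1.83 in Sham and 1.58 and 1.63 in TiO2-H. It was lower by 0.19 on the log2 scale (SE 0.05, adjusted p = 0.329). Its paralog Kdm3b was higher, with -1.52 and -1.42 in Sham and -1.20 and -1.34 in TiO2-H, and most of this lay in the arrays labelled male (0.32 against 0.08). The JmjC hydroxylase Kdm8 (JMJD5) gave -0.51 and -0.47 in Sham and -0.64 on both TiO2-H arrays, a difference of -0.15 ± 0.04.

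Kdm2a, which removes H3K36 dimethylation at CpG islands, gave -0.76 and -0.41 in Sham and -0.86 and -0.80 in TiO2-H. The Sham female array stood above the other 3, and the difference of -0.25 had an SE of 0.14. Kdm5a and Kdm5b, which remove H3K4 trimethylation, were lower in TiO2-H by 0.08 and 0.04 on the log2 scale. The paper lists Kdm5b among the mRNAs lowered past its threshold in female offspring. Here the 2 RefSeq probes of Kdm5b gave log2 fold changes of -0.06 and 0.03 on the arrays labelled female. Probes without a RefSeq accession were not read for the members. Kdm2b, which brings Polycomb proteins to CpG islands, Kdm4a, which demethylates H3K9 and H3K36, and Kdm6b overlapped between exposures. Their differences were -0.02, 0.00 and 0.01. Kdm6b (JMJD3), which removes H3K27 trimethylation and is inducible in neurogenesis and inflammation, gave 2.02 and 2.12 in Sham and 2.11 and 2.04 in TiO2-H.

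**Figure D3:**
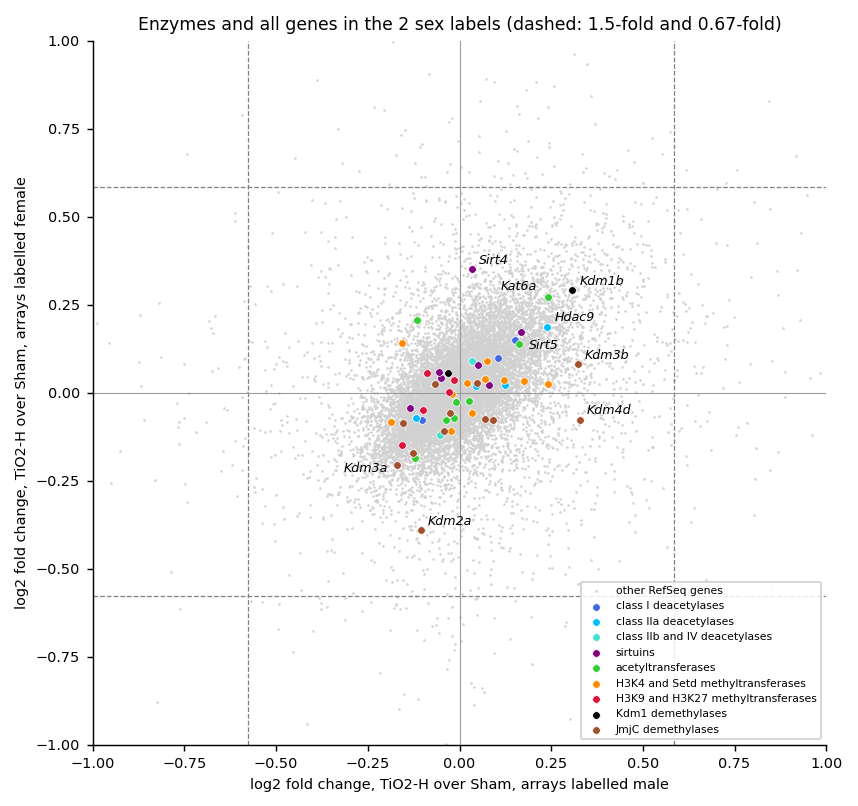
Log2 fold change of TiO2-H over Sham on the arrays labelled male (horizontal) and labelled female (vertical), for the 54 members (colored by family) and all other RefSeq genes well above background on all 4 arrays (grey). Of 14633 genes, 126 lie outside the axes, and all 54 members lie inside the dashed lines at 1.5-fold and 0.67-fold.

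The 2 comparisons use different arrays, so that they can be set side by side gene by gene. The 54 members compared in both labels had the same sign in 40 (74.1%), of which 21 were above and 19 below 0. Over the 14633 genes seen on all 4 arrays, 69.2% had the same sign. Both label comparisons have the Sham arrays in one slide row and the TiO2-H arrays in the other, and the part of slide position in this was not tested. The other 14 had opposite signs. The largest gaps among these were those of Kdm4d (0.33 and -0.08), Kat2b (-0.12 and 0.21) and Kmt2d (-0.16 and 0.14), with signals between 94.8 and 197. At higher signals, Sirt4 (0.03 and 0.35) and Kdm2a (-0.11 and -0.39) had gaps of like size with the same sign in both labels.

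Kdm7a, a demethylase of H3K9 and H3K27 known for a role in neural differentiation, was the only member called by its standing RefSeq probe. Its brighter probe gave processed signals of 25.7 on the Sham male, 230 on the Sham female, 33.2 on the TiO2-H array labelled male and 30.7 on that labelled female. Among the 4, the Sham female array alone held it well above background, so that only a bound can be given elsewhere. Its signal was at least 8.2-fold lower on the TiO2-H array labelled female than on the Sham female array. The same array made it the only member called between the 2 Sham arrays, where 1.84% of all genes were at or above 1.5-fold in female over male and 1.75% at or below 0.67-fold. The call between exposures thus rested on that array alone, and in the limma fit the difference of -1.50 had an SE of 1.15 (adjusted p = 0.548).

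The other Kdm7a probe did not share this pattern. In Sham it failed to rise well above background, with 31.9 for the Sham female and a lower signal for the Sham male array. It gave 47.3 and 48.1 on the TiO2-H arrays, where it was well above background. Read as bounds, TiO2-H was higher by at least 1.45-fold on the arrays labelled male and by at least 1.38-fold on those labelled female, under the threshold. The 2 probes of the gene thus pointed in opposite directions on the arrays labelled female.

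**Figure D4:**
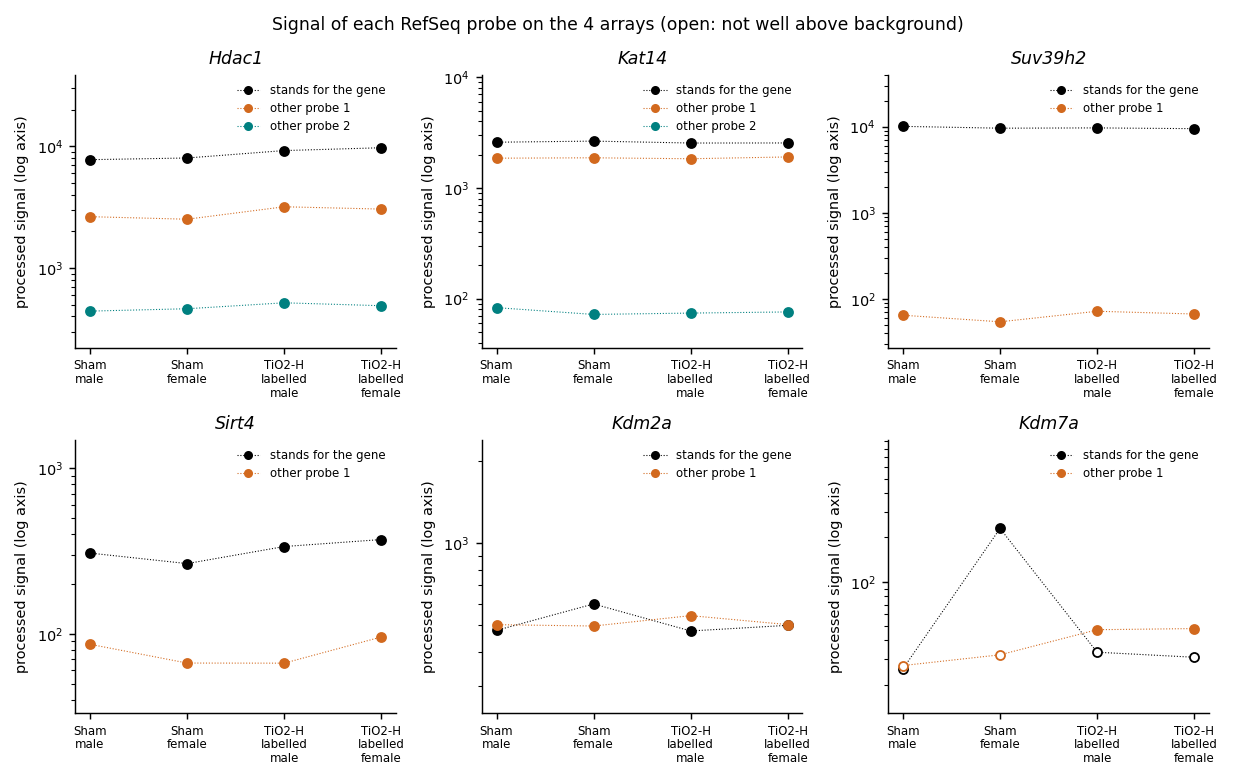
Processed signal (log axis) of every RefSeq probe of 6 members on the 4 arrays, with open circles where a probe was not well above background. The 2 brighter Hdac1 probes differ alike between exposures, whereas 1 of the 2 Kdm7a probes is high on the Sham female array alone.

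Where a gene had several probes, their fold changes could be set side by side. They were read on the same arrays and pools, and which part of a transcript each reads was not analysed here. In 16 members, 35 probes were well above background on all 4 arrays. The range of log2 fold changes among probes of a gene had a median of 0.12 in each label, as large as most differences between exposures. The 3 probes of Hdac1 gave 0.15, 0.17 and 0.13 on the arrays labelled male and 0.15, 0.15 and -0.05 on those labelled female. The 2 brighter probes of Kat14 were below 0 in both labels, with -0.12 and -0.11 on the arrays labelled male and -0.19 and -0.11 on those labelled female. Probes disagreed for Suv39h2, whose second probe gave 0.06 and 0.17 at signals of 54.1 to 71.7. The second probe of Kdm2a gave 0.01 and -0.11, and that of Sirt4 gave -0.48 and 0.39. Of 73 member probes seen on all 4 arrays, 0 passed a threshold in either label. Few genes did so in general, with 88 to 121 of the 14633 genes seen on all 4 arrays in each label and direction. Kdm1b, Kat6a, Kat6b, Hdac9, Sirt5, Kdm3a and Kdm8 had 1 RefSeq probe each, so that no second probe checks their values.

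Of the 5 X-linked relatives, Kdm5c and Kdm6a followed the sex-linked transcripts rather than the labels. Both escape X inactivation, and they had higher signals for Sham female and for the TiO2-H array labelled male. Kdm5c gave 2.06, 2.30, 2.39 and 2.14 on the Sham male, Sham female, TiO2-H labelled male and TiO2-H labelled female arrays, and Kdm6a gave -1.64, -1.24, -1.22 and -1.53. Hdac6, Suv39h1 and Hdac8 did not follow this pattern. Hdac6 lay between 3.49 and 3.58 on the 4 arrays, and Suv39h1 between 0.03 and 0.14. Hdac8 stood near -2.0 on 3 arrays (-2.00, -1.92 and -2.01) and at -0.27 on the TiO2-H array labelled female. Its second probe gave signals of 57.5, 46.7, 85.8 and 63.0 and had no such peak. Hdac8 was named after its values were seen.

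The partners of these enzymes were followed in 7 lists of other methyltransferases, acetyltransferases, JmjC proteins and complex subunits. Of 144 genes with a probe, 141 were compared, and 37 were higher and 41 lower on both TiO2-H arrays (26.2% and 29.1%, against 28.5% and 27.1% of all genes). The medians were -0.01 in both labels. By size, 3 were called, where 1.59% to 2.06% of all genes were in each label and direction. Jmjd4, a JmjC protein that hydroxylates a translation termination factor, gave 0.46 on the Sham male array and -0.07, -0.12 and -0.06 on the other 3, and was lower at 0.669-fold on the arrays labelled male. Prdm9, the meiotic H3K4 methyltransferase, had a signal of 86.1 in Sham female against 38.3 to 42.0 elsewhere, which is 0.406-fold on the arrays labelled female. Supt20, a SAGA subunit, was higher at 1.57-fold there, with signals of 35.7 and 61.3. In each case 1 array stood apart from the rest.

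In PRC2, which holds Ezh1 or Ezh2, the subunit Suz12 gave 0.78 and 0.81 in Sham and 0.96 and 1.01 in TiO2-H, whereas Eed gave 1.85 and 1.89 in Sham and 1.69 and 1.79 in TiO2-H. In the corepressor complexes of Hdac1 to Hdac3, Ncor1 was higher by 0.12 and Sin3b lower by 0.25 on the log2 scale. Of the 10 COMPASS subunits, which serve the Kmt2 enzymes, 6 were lower and 1 higher on both TiO2-H arrays, where 27.1% and 28.5% of all genes were. The list is small, and no test of it was made. Suz12, Eed, Ncor1 and Sin3b were picked from the lists after their values were seen, and none passed the adjusted test (lowest adjusted p = 0.327). Of the histone genes themselves, 3 of 8 listed had a RefSeq probe. The linker histone H1f0, which accumulates in cells that leave the cycle, gave -1.82 and -1.67 in Sham and -1.35 and -1.43 in TiO2-H (difference 0.36 ± 0.08, adjusted p = 0.327), and the other 2 differed by 0.02 or less in both labels.

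Of the 10 lists of cell type markers, 9 had sums that did not overlap between exposures. Of all single genes, 28.5% were higher and 27.1% lower on both TiO2-H arrays. These are not the shares for sums of several genes, which were not counted. Each sum adds signals on the linear scale, so that the brightest markers weigh most, and the single markers are not given here. In 6 lists the TiO2-H sums were higher. The summed signal of the 4 microglial markers, relative to the 75th percentile, was 36.9 and 39.0 in Sham and 41.8 and 44.8 in TiO2-H. That of the 5 oligodendrocyte markers was 19.1 and 19.2 in Sham and 20.9 and 21.4 in TiO2-H. The 5 markers of radial glia and progenitors gave 120 and 111 in Sham and 126 and 129 in TiO2-H, and the 5 of dividing cells 7.92 and 7.20 against 8.36 and 8.05. Endothelial markers gave 7.13 and 6.79 against 7.84 and 7.77, and meningeal markers 20.5 and 20.2 against 21.5 and 22.0. In 3 lists the TiO2-H sums were lower. Erythroid markers gave 68.3 and 65.7 in Sham and 56.1 and 56.8 in TiO2-H, astrocyte markers 30.5 and 31.8 against 30.1 on both TiO2-H arrays, and choroid plexus markers 87.0 and 84.7 against 82.2 and 83.4. The neuronal sum did not separate the exposures, with 336 and 338 in Sham and 333 and 345 in TiO2-H. The part of these shifts in the small differences of Kdm1b, Kat6a, Hdac9 and the other members was not tested.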

How the data were processed

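Whole-brain mRNA of 1-day-old mice was hybridised to 4 one-color Agilent arrays, each with a single pool. The authors deposited the scanner output and a value table, both as intensity, made with Feature Extraction 10.10.1.1, which subtracts the background and gives dim spots small positive values. Probe positions are not given, since the array annotation (mm9) and the gene table (GRCm38.p6) differ in build. That table named 21465 of 22765 RefSeq accessions (94.3%).

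The log2 of the deposited processed intensity was taken relative to the 75th percentile of all non-control spots (810, 795, 867 and 871 in the order Sham male and female, TiO2-H male and female). Outlier spots were dropped and spots of a probe averaged. Genes well above background on 1 of the arrays compared were kept. Where a probe was dim, its own value or, if higher, the lowest well-above-background signal of that array was used, and the fold change is read as a bound. Exposures, 2 arrays each, were compared in limma (version 3.58.1, under R 4.3.3) with Benjamini-Hochberg adjustment over all features and no term for sex. Python 3.11.15 with numpy 2.4.6 and pandas 2.3.3 served for the rest, and the steps were tested on simulated data. The number of arrays limits the precision, and p-values measure only the spread between these pools.

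The genes named are members past a threshold, the 12 with the largest mean difference among those seen on all 4 arrays and not overlapping between exposures, well-studied enzymes of each family whatever their values, members whose probes differ in call, and called genes of the partner lists. Others are named where a count rests on them. The members, lists, tests and alternatives were chosen with earlier results of these data known. Alternatives were other scalings, background correction, filters, thresholds, pairings, sex terms and the leaving out of each array.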

Additional observations from a re-analysis of the deposited data

Results flagged for a closer look

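The second RefSeq probe of Kdm7a, which did not stand for the gene, was well above background on both TiO2-H arrays and on neither Sham array. Its signal was at least 1.45-fold higher on the TiO2-H array labelled male than on the Sham male array, and at least 1.38-fold higher on the TiO2-H array labelled female than on the Sham female array. The signals of 47.3 and 48.1 lay close to the lowest signals well above background on those arrays, 29.5 and 23.3.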

How the results depend on the processing

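Leaving the arrays unscaled moved several values. The median log2 fold change of the members became 0.085 on the arrays labelled male and 0.15 on those labelled female, beside 0.10 and 0.14 over all genes. Then 39 members were higher and 3 lower on both TiO2-H arrays, against 61.4% and 6.33% of all genes. At an unadjusted limma p under 0.05, 19 members were higher and 0 lower, and the shares of all genes at that p were not counted without scaling. After normexp background correction 3 members were higher at that p. The call of Kdm7a was lost when probes of a gene were averaged (0 members at or below 0.67-fold) and when both arrays had to be well above background (0 members). With sex as labelled as a term, 3 members were higher and 1 lower at an unadjusted p under 0.05, and with sex crossed within TiO2-H, 0 were lower. No share of all genes at that p was counted for these alternatives. Leaving out each array in turn gave 2 to 3 higher (without the Sham female array 3, without any other 2) and 0 to 2 lower (without the Sham male array 2, without any other 0), in fits with fewer arrays in which a lone array is assumed to vary like the rest. The members apart between exposures then numbered 21 to 26 higher and 20 to 25 lower, against 38.2% to 40.8% and 36.5% to 38.9% of all genes, an alternative chosen after seeing the data. No member passed an adjusted p under 0.05 in any of the fits run. Of the 12 members with the largest differences, none reached an adjusted p below 0.145, the value without scaling. Their signs did not change, which the choice of members apart between exposures fixes when an array is left out, and several settings return the same difference by construction. Without scaling, those higher in TiO2-H gained in size, such as Kdm1b at 0.41, and the lower ones shrank. Kat14, Suv39h2 and Kdm8 then stood at -0.040, -0.039 and -0.035, Kdm3a at -0.073 and Kdm2a at -0.13. With normexp, Hdac9 went from 0.21 to 0.11 and Sirt5 from 0.17 to 0.11. Sizes fell in other settings too. Kdm3b went from a log2 difference of 0.20 to 0.0020 with normexp, Suv39h2 from -0.15 to -0.020 and Sirt4 from 0.19 to 0.075 with probes averaged, and Kdm2a from -0.25 to -0.074 without the Sham female array. Gene symbols of the array files could not be tried, since these files hold accessions only. Values near background, such as those of Kdm7a, Kmt2d and Prdm9, are limited by signal.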
